A study of Homo sapiens with 6 samples.

Results

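The nuclear factor I (NFI) family consists of 4 genes in humans, NFIA, NFIB, NFIC and NFIX, and all 4 were measured here, each by 1 probe set, among 14884 genes with a named probe set. The members were taken by gene symbol from the platform annotation, and the family was chosen by the measured difference of NFIB, whose signal was higher in the cells with the microRNA vector. The difference of NFIB between the groups is therefore given as a description, and no test is drawn from it. NFIA, NFIC and NFIX were taken by name and not by their values.

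The cells studied were HCT116, a human colorectal carcinoma cell line of epithelial type, cultured in McCoy's medium with serum and antibiotics. The sample titles and the cell line field spell the line HTC116, while the growth protocol and the series design spell it HCT116, the name used here. The sample titles also do not spell the microRNA as miR-196b, the name used here for that group. The 3 arrays of the miR-196b group held total RNA of cells stably transduced to overexpress miR-196b, and the 3 arrays of the empty vector group held RNA of cells stably transduced with the vector alone. Both groups therefore carry a vector, and the labels give neither its promoter nor whether a line is 1 clone. The labels name biological replicates without stating separate transductions, and a p-value then reflects only how much these samples varied, which may be technical.

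NFI proteins are sequence-specific DNA-binding transcription factors. They share a conserved amino-terminal part that binds DNA and forms homodimers and heterodimers within the family, while their carboxy-terminal parts differ and can activate or repress transcription. They were first known as host factors of adenovirus replication and as CCAAT-binding transcription factors, and are studied mostly in glia, lung, muscle, tooth and hair follicle stem cells.

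The sequence the vector is labelled to supply, and that of its closest relative, are shown because the labels separate the groups by the microRNA. Both are mature microRNAs from RefSeq (GRCh38.p14), 22 bases long, with the seed (bases 2 to 8), the part that pairs with target transcripts, in capitals.
hsa-miR-196b-5p: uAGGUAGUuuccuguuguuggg
hsa-miR-196a-5p: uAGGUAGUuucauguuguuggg
They have the same seed and differ at 1 base, C12A, counted from the 5′ end of miR-196b-5p. MIR196B lies on chromosome 7, while miR-196a-5p comes from MIR196A1 on chromosome 17 and MIR196A2 on chromosome 12. The MIR196B probe set was at 8.21, 7.93 and 8.01 in the miR-196b arrays, against 8.09, 7.91 and 7.91 in the empty vector arrays (log2 signal), so the groups overlapped. The MIR196A2 probe set was at 10.6, 10.5 and 10.8 in the miR-196b arrays, against 3.09, 3.21 and 2.88 in the empty vector arrays. Its difference, 7.55, was the highest of all named probe sets. The array reads precursor transcripts, so neither probe set gives a level of the mature microRNA. Every direction below refers to the label of the array.

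NFI dimers bind the palindrome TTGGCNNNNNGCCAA, of which each arm, TTGGC or GCCAA, can be bound more weakly alone. Promoter windows of the family (250 bases before to 50 after each start, RefSeq, GRCh38.p14) were searched for both forms on both strands. The palindrome is its own reverse complement, and every match to it holds 2 arms. The palindrome occurred in 10 of 35116 promoter windows of all genes (0.0285%) and in 0 of the 19 windows of the family. A single arm occurred in 9 of the 19 family windows (47.4%), against 45.6% of all windows, so the family's share lay close to that of all genes. By gene this was 6 of 10 windows of NFIB, 2 of 5 of NFIX, 1 of 3 of NFIA and 0 of 1 of NFIC. The 2 NFIX windows overlap and hold the same match. These matches are letters in a window and not measured binding sites. The windows around single arms are shown for NFIA, NFIX and 3 of the 6 NFIB windows (25 bases each, arm in capitals, chr9, chr1 and chr19).
NFIB, chr9:14322448-14322472, minus strand: cgcgggccagGCCAAtccgagggcg
NFIB, chr9:14532106-14532130, minus strand: gtgataaggaTTGGCctacatgtag
NFIB, chr9:14316278-14316302, minus strand: gctggtaaacTTGGCaagctcgcct
NFIA, chr1:61077037-61077061, plus strand: ggggctcctaTTGGCcacgcgccgt
NFIX, chr19:13024496-13024520, plus strand: cttgggggcgGCCAAaaatcgaccg
In the first NFIB window the arm starts 75 bases before the start site and overlaps the letters CCAAT. The NFIB sequence upstream of that start (chr9:14322388-14322637, minus strand, 250 bases, 78.4% G or C) is shown whole, since NFIB is the member whose signal differed. The single NFIB probe set cannot tell transcripts from the 10 listed starts apart.
NFIB upstream sequence: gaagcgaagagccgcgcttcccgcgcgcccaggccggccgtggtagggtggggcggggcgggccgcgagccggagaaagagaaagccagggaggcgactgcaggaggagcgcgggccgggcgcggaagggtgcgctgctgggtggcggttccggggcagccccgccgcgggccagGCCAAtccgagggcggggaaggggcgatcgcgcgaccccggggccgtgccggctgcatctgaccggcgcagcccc

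NFIB was the only one of the 4 members whose groups did not overlap, with the miR-196b arrays higher. NFIB (probe set 17092490) lies on chromosome 9, from 14081843 to 14532077 in GRCh38.p14. Its product supports lung and brain maturation in the mouse and promotes metastasis in small cell lung cancer models. Its signal was 7.63, 7.71 and 7.66 in the miR-196b arrays, against 6.95, 7.0003 and 7.03 in the empty vector arrays (log2). The groups did not overlap, and the lowest miR-196b array lay 0.59 above the highest empty vector array. The mean was 7.66 ± 0.040 in the miR-196b group and 6.99 ± 0.042 in the empty vector group (SD, n = 3 each), a difference of 0.67 with an SE of 0.07 and a 95% interval of 0.51 to 0.83, or 1.59-fold. Within each group the arrays spanned 0.080 (miR-196b) and 0.083 (empty vector). Both SDs, each of 1 group, were below 0.128, the median over all named probe sets of the within-group SD pooled over both groups. The single-group SDs of NFIA, NFIC and NFIX were also below 0.128. A small SD favours a small p, so the spread of NFIB is also part of the choice. In bulk RNA, more cells with the transcript and more transcript per cell cannot be told apart.

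The values that chose the family were those of the fit across all named probe sets. Of 16098 probe sets, 9 passed at an adjusted p below 0.05 (0.0559%, or 0.0248% with miR-196b higher), and 1 of the 4 members, NFIB, was among them, which is what the choice used. NFIB was the eighth by p, with an adjusted p of 0.0452 in limma. The values near the threshold were 0.0452 for SAT1 and 0.0480 for MIR149 inside it, and 0.0528 for KRTAP3-1 and 0.0586 for ANXA10 outside it. The place of NFIB inside the threshold depended on the arrays and settings used. With any of the 6 arrays left out, the adjusted p was 0.204 to 0.304 in limma, and the difference was 0.65 to 0.69. The adjusted p was 0.344 with the replicate number as a block, 0.229 with all 53617 probe sets tested and 0.0722 without variance moderation. The block, the wider test and the unmoderated fit cannot change the difference itself, which is one of group means.

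**Figure D1:**
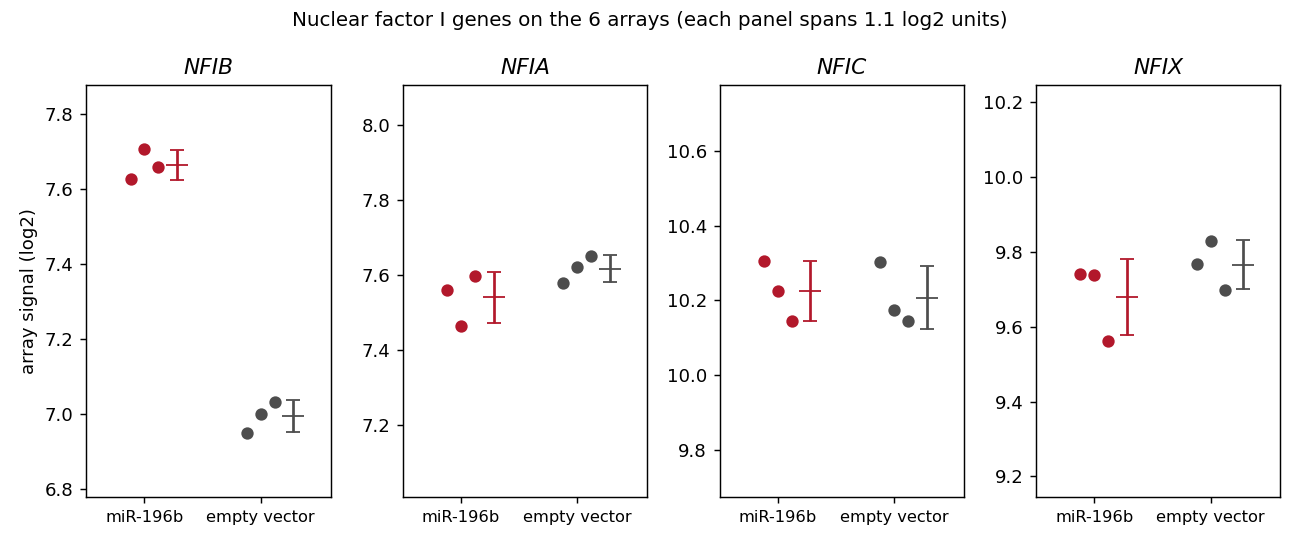
Log2 array signal of the 4 NFI genes, with 1 point per array, miR-196b at the left and empty vector at the right of each panel, and the group mean with its SD (n = 3) beside the points. All panels have the same span, and the groups are apart for NFIB, with miR-196b at 7.63 to 7.71 and empty vector at 6.95 to 7.03, while they overlap for NFIA, NFIC and NFIX.

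The other members showed no difference that passed the test. NFIA (probe set 16665346, chromosome 1, 61077227 to 61462788), which starts the formation of glia in the chick and mouse spinal cord, was at 7.56, 7.46 and 7.60 in the miR-196b arrays, against 7.58, 7.62 and 7.65 in the empty vector arrays (log2 signal). The groups overlapped, and the lowest array was miR-196b replicate 2. NFIA differed by -0.08, with -0.25 and 0.10 as the bounds of the 95% interval (limma adjusted p = 0.755).

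NFIC (probe set 16856946, chromosome 19, 3359630 to 3469217), needed for tooth root formation in the mouse, was at 10.3, 10.2 and 10.1 in the miR-196b arrays, against 10.3, 10.2 and 10.1 in the empty vector arrays (log2 signal). The arrays of the groups overlapped along nearly their whole span, 10.1447 to 10.3063. NFIC differed by 0.02, with -0.18 and 0.21 as the bounds of the 95% interval (limma adjusted p = 0.958), and the sign turned when miR-196b replicate 1 (-0.02) or empty vector replicate 3 (-0.01) was left out.

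NFIX (probe set 16858805, chromosome 19, 12995475 to 13098796), which switches mouse muscle to its fetal program and is altered in Malan syndrome, was at 9.74, 9.74 and 9.56 in the miR-196b arrays, against 9.77, 9.83 and 9.70 in the empty vector arrays (log2 signal). The groups overlapped, and miR-196b replicate 3 was the lowest of the 6 arrays. NFIX differed by -0.09, with -0.28 and 0.11 as the bounds of the 95% interval (limma adjusted p = 0.757).

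These intervals limit the differences the 3 genes could have had. On a linear scale the intervals ran from 0.842 to 1.07 for NFIA, from 0.886 to 1.16 for NFIC and from 0.822 to 1.08 for NFIX (miR-196b over empty vector), while that of NFIB ran from 1.42 to 1.78. The interval of NFIB overlapped none of the other 3. That gap includes the value for which NFIB was chosen and is not a test of a difference between members. The groups did not overlap for 1 of the 4 members, against 17.2% of all named probe sets (10.0% with miR-196b higher). That member was NFIB, for which the family was chosen, so this count was fixed by the choice and supports nothing. The groups of NFIA, NFIC and NFIX, taken by name, overlapped. The median difference was -0.03 over the 4 members, and 0.0069 over all named probe sets. No levels are compared between members, since signals of different probe sets are not on a common scale.

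None of the nearest measured genes around NFIB passed the test. The nearest 3 genes with a named probe set on each side were taken in the gene order of the GRCh38.p14 annotation. MPDZ, LINC01235 and LINC00583 lay 9, 8 and 4 genes before NFIB, and FREM1, LOC389705 and TTC39B lay 9, 15 and 20 genes after it. None adjoins NFIB. MPDZ, LINC00583 and FREM1 were dim, with group means below the array medians of 4.34 to 4.37. The scaffold gene MPDZ had a difference of -0.0038 and the noncoding RNA LINC01235 one of -0.18. LINC00583, the closest on its side, had a difference of 0.0060, with a 95% interval of -0.26 to 0.27.

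On the other side, FREM1, a basement membrane protein gene, was at 2.61, 2.89 and 2.79 in the miR-196b arrays, against 3.02, 2.92 and 2.96 in the empty vector arrays (log2 signal). Its groups did not overlap, with the miR-196b arrays lower, and the difference of -0.20 was not called (limma adjusted p = 0.513). LOC389705, a pseudogene, had 0.21 and TTC39B -0.15. Of the 6 probe sets, 0 passed in limma (smallest adjusted p = 0.513), against 0.0559% of all named probe sets. At an unadjusted p below 0.05 there were 0, against 9.87% of all named probe sets. So few probe sets cannot show whether the difference is particular to NFIB.

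**Figure D2:**
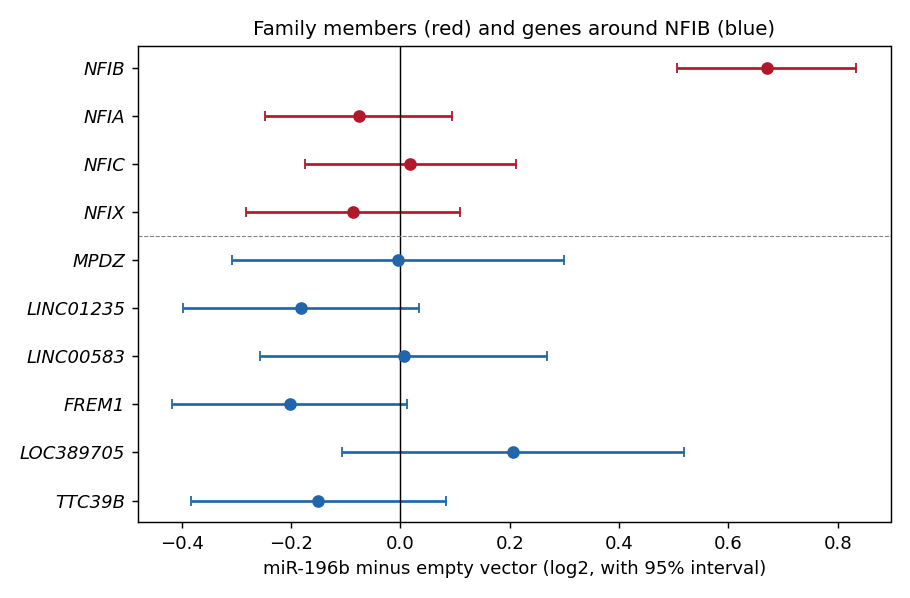
Difference between the miR-196b and empty vector groups in log2 signal with its 95% interval (points and bars), for the 4 NFI genes (red) and the 6 genes around NFIB (blue). NFIB is at 0.67 with an interval of 0.51 to 0.83, and the intervals of the other 9 genes reach 0.

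Genes tied to NFI proteins by earlier reports, by name or by a related DNA-binding domain were examined as lists. The lists were drawn up from the genes' known roles, with earlier results of these data known. Of 67 genes in 7 lists, 41 had a named probe set, and 0 of the 41 passed in limma, against 0.0559% of all named probe sets. At an unadjusted p below 0.05 there were 4 of 41 (9.76%), 2 higher and 2 lower, against 9.87% of all named probe sets (5.73% higher and 4.14% lower). The lists' share thus lay at that of the array. The median difference was 0.02, with 24 of 41 above 0, against 52.0% of all named probe sets. The antisense genes of the family had a named probe set for 0 of 3.

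Among partners and upstream factors, 9 of 10 had a probe set, 0 passed, and 3 were above 0 and 6 below (median -0.07). FOXA1, a pioneer factor that binds NFIB protein in prostate cells, was at 3.94, 4.12 and 4.01 in the miR-196b arrays, against 4.16, 4.28 and 4.36 in the empty vector arrays (log2 signal). Its groups did not overlap, and the difference of -0.24 with an SE of 0.09 did not pass (limma adjusted p = 0.452). FOXA1 was dim, with group means of 4.03 (miR-196b) and 4.27 (empty vector), below the array medians of 4.34 to 4.37. NOTCH1, the receptor whose signalling induces NFIA in mouse neural precursors, was at 7.78, 7.70 and 7.59 in the miR-196b arrays, against 7.91, 7.80 and 7.99 in the empty vector arrays. It had a difference of -0.21 (limma adjusted p = 0.491) with groups that did not overlap. RBPJ, the DNA-binding partner of NOTCH1, had 0.14 and SOX10, a glial and neural crest factor, had -0.19 (limma adjusted p = 0.545 and 0.507). SOX9, which induces NFIA in the spinal cord of the chick and mouse and is also a factor of colon crypts, was at 10.6 ± 0.143 in the miR-196b group and 10.6 ± 0.045 in the empty vector group (SD, n = 3 each), with a difference of 0.0038.

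Reported targets in the nervous system had a probe set for 9 of 15 genes, and 0 passed, with a median difference of 0.0048 and a range of -0.10 to 0.18. The 4 with the smallest p were NES, an intermediate filament gene of stem cells (0.18), GLUL, which encodes glutamine synthetase (0.09), EZH2, the methyltransferase that NFIB represses in mouse brain (0.08), and AQP4, a water channel of astrocytes (-0.06). The limma adjusted p-values of these 4 were 0.725 to 0.816, and those of the 9 reached 0.994. AQP4 was dim, with both group means below the array medians. EZH2 was at 9.38, 9.55 and 9.56 in the miR-196b arrays, against 9.40, 9.44 and 9.41 in the empty vector arrays (log2 signal), and the groups overlapped. GFAP, the marker filament of astrocytes and an NFI target in mouse and human glia, had a difference of -0.03.

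Reported targets outside the nervous system had a probe set for 8 of 16 genes, and 0 passed (median difference 0.00016). PPARG, a nuclear receptor of fat cells and also of colon epithelium, was at 6.47, 6.33 and 6.48 in the miR-196b arrays, against 5.95, 6.07 and 6.07 in the empty vector arrays (log2 signal). Its groups did not overlap. The difference of 0.39 with an SE of 0.08 had an unadjusted p of 0.00168 and did not pass over all probe sets (limma adjusted p = 0.310). DSPP, a dentin protein gene regulated by NFIC in mouse teeth, had 0.29, PCK1, a gluconeogenic enzyme, had -0.12 and KLF4, a factor of differentiated epithelium, had -0.08 (limma adjusted p = 0.545 to 0.768). DSPP and PCK1 were dim, with group means below the array medians.

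SMAD proteins carry a DNA-binding domain related in fold to that of NFI and transmit TGF-beta and BMP signals. All 8 SMAD genes had a probe set, and 0 passed (median difference 0.11, against 0.0069 over all named probe sets). Differences were above 0 for 7 and below 0 for 1, against 52.0% of all named probe sets above 0. The SMAD genes were not tested as a set. SMAD9, a BMP-regulated member, was at 5.90, 6.02 and 5.86 in the miR-196b arrays, against 5.82, 5.67 and 5.56 in the empty vector arrays (log2 signal), a difference of 0.25 (limma adjusted p = 0.468). SMAD4, the shared partner of the signalling SMADs, was at 9.84, 9.86 and 9.88 in the miR-196b arrays, against 9.68, 9.71 and 9.71 in the empty vector arrays, a difference of 0.15 (limma adjusted p = 0.505). For both genes, and for SMAD6 with a difference of 0.09, the groups did not overlap. These were 3 of the 8 SMAD genes, all with miR-196b higher, against 10.0% of all named probe sets. SMAD5, of the BMP branch, had 0.18 and SMAD2, of the TGF-beta branch, had 0.13.

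Other CCAAT-binding factors had a probe set for 2 of 11 genes. DDIT3, a stress-induced partner of C/EBP proteins, had a difference of 0.31 with overlapping groups (limma adjusted p = 0.587), and YBX1, a cold shock domain protein, had 0.01. All 5 microRNA genes linked to the family had a probe set, and 0 passed. MIR21, whose promoter NFIB was reported to repress in human leukemia cells, was at 8.51, 8.51 and 8.92 in the miR-196b arrays, against 8.43, 8.41 and 8.17 in the empty vector arrays (log2 signal). Its groups did not overlap, and the difference of 0.31 did not pass (limma adjusted p = 0.507). MIR424 and MIR223, which target NFIA in human myeloid cells, had -0.14 and 0.02, and MIR365A had -0.07. MIR424 and MIR223 were dim, with group means below the array medians. These probe sets read precursors and not the mature microRNAs.

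**Figure D3:**
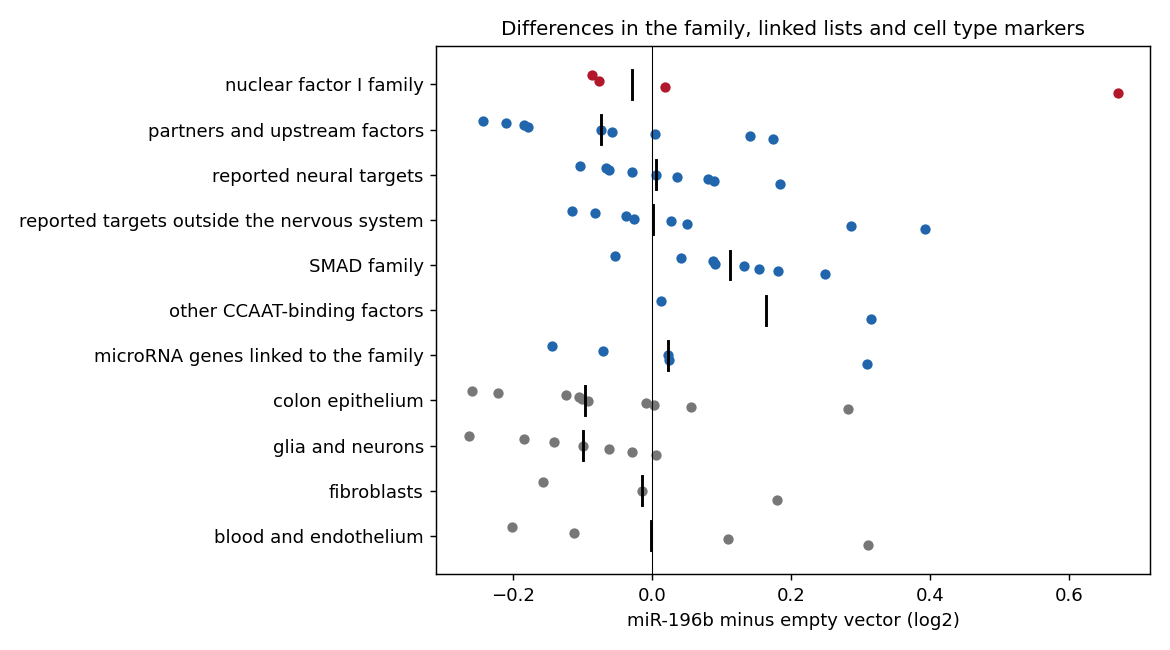
Difference between the miR-196b and empty vector groups in log2 signal (x axis), with 1 point per probe set and a black bar at each list's median, for the NFI family (red), the linked lists (blue) and cell type markers (grey). NFIB at 0.67 stands at the right, and the linked lists run from -0.24 (FOXA1) to 0.39 (PPARG).

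The label of a colon epithelial line was set against its markers. EPCAM, an epithelial adhesion molecule, was at 10.9 ± 0.079 in the miR-196b group and 11.02 ± 0.104 in the empty vector group (log2 signal, SD, n = 3 each). The keratin KRT19 was at 10.1 ± 0.104 in the miR-196b group and 10.1 ± 0.113 in the empty vector group. VIL1, a brush border protein, was the only one of these probe sets below the median of the arrays, at 4.18 ± 0.115 in the miR-196b group and 4.13 ± 0.186 in the empty vector group. Of 12 colon epithelium genes, 9 had a probe set (10 probe sets, since KRT18 had 2), and 0 passed. The groups did not overlap at 1 probe set with miR-196b higher (CLDN4). They also did not overlap at 3 with miR-196b lower (CDX2, CLDN7 and 1 of KRT18), against 17.2% of all named probe sets in either direction. An unadjusted p below 0.05 in limma was found for 2 of the 10, both lower, against 9.87% of all named probe sets. The summed log2 signal of the 10 ran from 80.3 to 81.4 in the miR-196b arrays and from 81.3 to 81.7 in the empty vector arrays. KRT18, a simple epithelial keratin, had differences of -0.22 and -0.10 at its probe sets, CDX2, a factor of intestinal identity, had -0.26, and the claudins CLDN4 and CLDN7 had 0.28 and -0.11.

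Markers of other cell types did not pass either. The 7 probe sets of glia and neurons summed to 31.03 to 32.04 in the miR-196b arrays and 31.7 to 32.9 in the empty vector arrays, with SYP, a synaptic vesicle protein, at -0.26 and -0.14 and MBP, a myelin protein, at -0.10. The 3 of fibroblasts summed to 9.17 to 9.67 in the miR-196b arrays and 9.24 to 9.61 in the empty vector arrays, with LUM at 0.18, THY1 at -0.16 and DCN at -0.02. The 4 of blood and endothelium summed to 18.7 to 19.4 in the miR-196b arrays and 18.8 to 19.1 in the empty vector arrays, with CSF1R at 0.31, CD68 at -0.20, PECAM1 at 0.11 and VWF at -0.11. The values have no true 0, so absence cannot be read from them, and the part of any of these cell types in the NFIB difference was not tested.

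Within the groups, no other member had a positive correlation with NFIB. Over the 6 deviations from the group means, which do not hold the difference between the groups, the correlation with NFIB was -0.13 for NFIA, -0.71 for NFIC and -0.11 for NFIX (Pearson r over 6 arrays, which share their normalization, as a description). The named probe sets with the highest r were those of MRPL23, a mitochondrial ribosomal protein, LINC02398, FOXA1, LBR, a lamin receptor of the inner nuclear membrane, and PBX3, a homeobox cofactor, at 0.998 to 0.999. The 6 deviations sum to 0 within each group and so hold only 4 free values, which makes a high r easier to reach. High values were common, with 432 of 16094 probe sets above 0.9. Over the 6 signals themselves, which include the difference between the groups, r was 0.13 for MRPL23, -0.01 for LINC02398, -0.78 for FOXA1, 0.04 for LBR and 0.74 for PBX3. Of these 5, PBX3 had a difference of 0.18 (limma adjusted p = 0.586) and FOXA1 one of -0.24, and the other 3 had -0.03 to 0.0023. FOXA1 and LINC02398 were dim, with group means below the array medians.

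**Figure D4:**
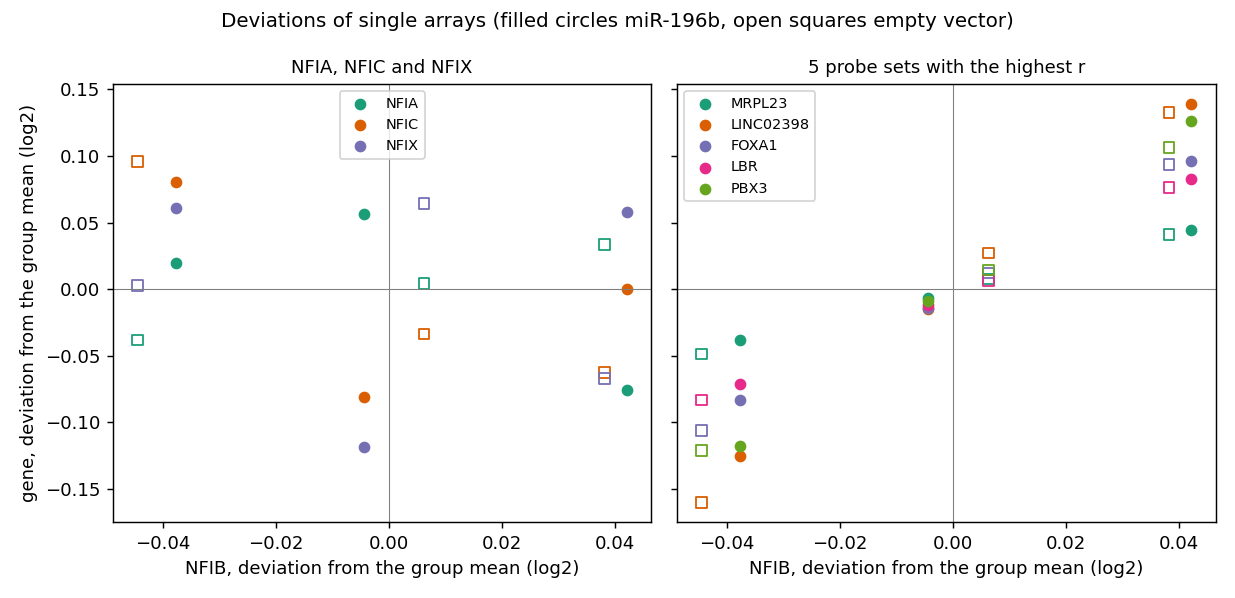
Deviation of single arrays from their group mean in log2 signal, NFIB on the x axis and each other gene on the y axis, with filled circles for the miR-196b arrays and open squares for the empty vector arrays. NFIA, NFIC and NFIX at the left show no common line with NFIB (r = -0.13, -0.71 and -0.11), and the 5 probe sets chosen for the highest r at the right do.

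The 6 arrays had median log2 signals of 4.34 to 4.37 over all 53617 probe sets, and r across named probe sets, which are no independent replicates, was 0.994 to 0.995 for arrays of the same group and 0.992 to 0.994 for arrays of different groups. The small number of arrays limits the precision.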

How the data were processed

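Total RNA of 6 HCT116 cultures was hybridised to whole-transcript arrays after biotin labelling, 3 per group. The authors deposited 1 log2 value for each probe set on each array. The submitters' processing notes list Partek 6.6 and RMA, without order or options. The log base and the genome build are not given in the sources used here, and base 2 was taken because RMA gives log2 values. RMA's quantile normalization removes differences in overall level between arrays.

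Genes were named through the platform annotation and checked against gene identifiers of GRCh38.p14. Of 53617 probe sets, 16098 had 1 gene symbol, 0 several, and 37519 none here. These values were fitted as deposited in R 4.3.3 with limma 3.58.1 (lmFit, eBayes, 16098 probe sets, Benjamini-Hochberg adjustment, threshold 0.05), as miR-196b minus empty vector, after the script was tested on simulated data. Differences are on the log2 scale. Intervals are 95% intervals of that fit.

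The members and lists were chosen with earlier results of these data known. The genes named were the members, up to 4 genes of each list with the smallest p and the 5 probe sets most like NFIB. The nearest 3 genes with a named probe set on each side of NFIB were also named. MIR196B and MIR196A2 were named as a check of the labels, and MIR196A1 as the other source of miR-196a-5p. SOX9, GFAP, EPCAM, KRT19, VIL1, SMAD6, MIR3116-1 and the genes next to the threshold were named in addition, after their values were seen. KRT18 has 2 probe sets, both given. Batches were not tested, since scan dates were not used here. Promoter and microRNA sequences are from RefSeq, and probe positions were not used here.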

Additional observations from a re-analysis of the deposited data

How the results depend on the processing

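NFIA, NFIC and NFIX passed under 0 of 14 alternatives each. With 1 array left out, NFIC ranged from -0.0225 to 0.0659. The NFIB difference was 0.66 to 0.68 over the other alternatives, and its adjusted p, 0.000815 to 0.344, was below 0.05 in 5 of 14. Called probe sets (9) became 91 with a trended, robust variance prior, 22 without the dimmest 40% of probe sets, 5 without variance moderation, 1 with the replicate block and 2 to 3 with 1 array left out. Of the genes in the fixed lists, markers included, 1 was called with the trended, robust prior (KRT18, -0.22, adjusted p = 0.0302) and 0 under each of the others.

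The deviations of same-numbered arrays had r = 0.0085 to 0.037 across probe sets, against -0.052 to 0.020 for arrays of different numbers. Values this small, over mostly noise, cannot settle whether the numbers pair the arrays. Array weights, centring on the median, another round of quantile normalization and a test of all 53617 probe sets were also tried. The few arrays and an unknown background limit what can be seen: the level of dim probe sets was not tested against background.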

Other observations

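The genes around NFIA, NFIC and NFIX were also read, by the rule used for NFIB. Around NFIX, 6 probe sets had differences of -0.13 to 0.08 (miR-196b minus empty vector, log2 signal). Around NFIA, 7 probe sets had -0.25 to 0.37. Among them, the probe sets of MIR3116-1 went opposite ways, at -0.16 and 0.37. Around NFIC, 6 probe sets had -0.61 to 0.20. In limma 0 passed in each of the 3 neighbourhoods (smallest adjusted p = 0.417), and 2, 1 and 0 had an unadjusted p below 0.05 around NFIA, NFIC and NFIX, against 9.87% of all named probe sets. SMIM24, the next measured gene after NFIC, was singled out after its values were seen. It differed by -0.61, with -1.09 and -0.12 as the bounds of the 95% interval (limma adjusted p = 0.437). SMIM24 was at 3.52, 4.348 and 3.62 in the miR-196b arrays, against 4.49, 4.47 and 4.354 in the empty vector arrays. The groups thus barely failed to overlap, with miR-196b replicate 2 next to the lowest empty vector array.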
